A study of Mus musculus with 6 samples.

Results

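The genes described here are 55 interferon-stimulated genes, listed by symbol as known targets of type I or type II interferon, and measured in bone marrow-derived macrophages (BMDMs) of WT and PYK2 KO mice. All 55 symbols were found in the deposited count table, which holds 55291 genes. A filter on low counts left 9815 genes for testing between genotypes, and 49 of the 55 were among them. PYK2 is a cytoplasmic tyrosine kinase encoded by Ptk2b, and in the knock-out line every cell of the mouse, not only its macrophages, lacks it. BMDMs are primary macrophages grown from flushed bone marrow, here for 7 days with medium conditioned by L929 cells, which secrete the macrophage growth factor M-CSF. WT and PYK2 KO (PYK2-/-) mice were both of C57BL/6 background, of an age not given in the sources used here. Whether they were littermates or shared a substrain is not stated in the paper. The cells of both genotypes were cultured alike, and no interferon or other stimulus is described for them. Each genotype was sequenced in 3 libraries of 1 mouse each. The WT libraries carry the numbers 1, 5 and 6 and the PYK2 KO libraries the numbers 2, 3 and 4. RNA was measured by a bulk form of MARS-seq, which reads the 3′ ends of polyadenylated transcripts, so a lower count in a bulk library may stand for fewer cells that express a gene or for less RNA per cell, and these cannot be told apart.

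Type I interferons bind a receptor of the chains IFNAR1 and IFNAR2, whose kinases JAK1 and TYK2 phosphorylate transcription factors of the STAT family. Their complex with IRF9, ISGF3, binds the interferon-stimulated response element (ISRE) before the genes that it induces. Interferon-γ acts through IFNGR1 and IFNGR2 and induces genes through the gamma-activated site (GAS). Macrophages express many of these genes at a low level without infection, a state that is often called tonic interferon signalling.

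The libraries held between 2857097 and 3917207 counts, and the genes of the list took between 0.394% and 0.446% of them in WT and between 0.405% and 0.469% in PYK2 KO BMDMs. Ptk2b counts ran from 568 to 737 in WT and from 64 to 71 in PYK2 KO libraries. All 10 macrophage markers, such as Csf1r and Lyz2, were detected in every library and none passed the test between genotypes, with 0 at an unadjusted p-value under 0.05. Their summed level was 29685 to 30464 CPM (counts per library total of 1000000, with totals scaled by the TMM method) in WT against 30856 to 31847 CPM in PYK2 KO BMDMs. Most of this sum was Lyz2, which averaged 24068 CPM in WT against 25389 CPM in PYK2 KO BMDMs. All PYK2 KO values lay above the WT values in 2 of the 10 markers (Itgam and Lyz2), where 5.17% of all genes did so. Of the markers of other cells that produce or answer interferon, all 5 of dendritic cells were at 0 counts in every library, as were Siglech, Ccr9 and Klk1 of plasmacytoid dendritic cells (the marker Tcf4 stood at 53.8 and 52.1 CPM) and Cd79a, Ms4a1 and Pax5 of B cells (Cd79b stood at 20.1 and 17.2 CPM). Markers of T and NK cells were at 0 for 4 of 6, of erythroid cells for 3 of 4 and of stromal cells for 2 of 5. Neutrophil markers were present, with a sum over 7 genes of 127 to 180 CPM in WT against 133 to 229 CPM in PYK2 KO BMDMs.

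The sequences in front of these genes show the letters that interferon-activated factors are known to bind. RefSeq gives a window of 250 bases before to 50 bases after the start (GRCm38.p6) for 42 of the 55 genes, 10 of them with more than 1 start. The core of the ISRE was searched as GAAANNGAAA and the GAS as TTCNNNGAA, both on either strand. An ISRE core was found in 23 of the 42 genes, or 54.8%, against 3.99% of all 27025 genes with a window and 3.44% of all 32851 windows. A GAS was found in 11 of the 42, or 26.2%, against 9.55% of all genes and 8.30% of all windows. Of the 34 ISRE cores 29 began before the start, counting once a core of Slfn8 that lies in the windows of 2 starts. Both motifs were found in 6 genes, overlapping each other in Bst2 and Ifitm3, and 14 genes had neither in these windows. A match is a run of letters and not a measured binding site, and the genes were listed as interferon targets, so the share describes the list and tests nothing.

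The 250 bases before the start are shown for 5 genes, 5′ to 3′ on the strand of the gene, with the matched letters in capitals. Apobec3 is shown as the 1 gene of the list that passed the test, Gbp2 and Isg20 as the others that had a match together with an unadjusted p-value under 0.05, and Isg15 and Ifit1 as the genes most often used to read an interferon response. The windows are chr15:79892158-79892407 (plus strand) for the first of the 2 starts of Apobec3, chr3:142620413-142620662 (plus strand) for Gbp2, chr7:78913174-78913423 (plus strand) for the first of the 3 starts of Isg20, chr4:156200819-156201068 (minus strand) for Isg15 and chr19:34640639-34640888 (plus strand) for Ifit1. Capitals mark an ISRE core in all of them but Isg20, where they mark a GAS.
Apobec3: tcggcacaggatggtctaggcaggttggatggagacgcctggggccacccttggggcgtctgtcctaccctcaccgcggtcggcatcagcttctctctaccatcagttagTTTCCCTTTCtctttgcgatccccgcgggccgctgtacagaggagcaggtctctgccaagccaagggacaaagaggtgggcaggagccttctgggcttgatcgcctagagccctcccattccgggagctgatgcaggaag
Gbp2: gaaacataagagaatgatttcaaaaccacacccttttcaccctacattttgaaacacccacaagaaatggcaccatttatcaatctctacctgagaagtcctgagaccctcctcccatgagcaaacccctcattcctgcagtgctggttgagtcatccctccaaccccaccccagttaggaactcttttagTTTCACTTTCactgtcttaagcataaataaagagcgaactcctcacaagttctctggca
Isg20: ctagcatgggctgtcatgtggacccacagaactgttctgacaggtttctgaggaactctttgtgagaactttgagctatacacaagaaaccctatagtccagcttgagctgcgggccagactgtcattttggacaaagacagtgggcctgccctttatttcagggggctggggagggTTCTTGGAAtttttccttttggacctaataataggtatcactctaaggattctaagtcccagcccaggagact
Isg15: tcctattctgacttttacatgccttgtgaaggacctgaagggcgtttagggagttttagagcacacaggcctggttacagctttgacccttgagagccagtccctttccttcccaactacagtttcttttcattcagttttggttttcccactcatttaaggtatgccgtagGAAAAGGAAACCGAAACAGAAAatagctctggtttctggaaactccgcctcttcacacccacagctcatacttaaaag
Ifit1: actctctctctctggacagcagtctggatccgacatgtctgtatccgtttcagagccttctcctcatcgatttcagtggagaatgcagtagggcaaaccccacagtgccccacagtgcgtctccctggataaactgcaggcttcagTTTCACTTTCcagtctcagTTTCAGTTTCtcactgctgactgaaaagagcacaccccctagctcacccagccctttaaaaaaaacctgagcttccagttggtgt
The ISRE core began 140 bases before the start in Apobec3 and 59 before it in Gbp2. In Ifit1 there were 2 cores, 104 and 85 bases before the start, and in Isg15 there were 3 that overlap each other, the first 78 bases before the start. The GAS of Isg20 began 73 bases before its first start. The other start of Apobec3 and the other 2 of Isg20 had no match, nor did the windows of Slfn2 and of Xaf1, whose PYK2 KO values all lay above the WT values, and no window was given for Ly6e.

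**Figure D1:**
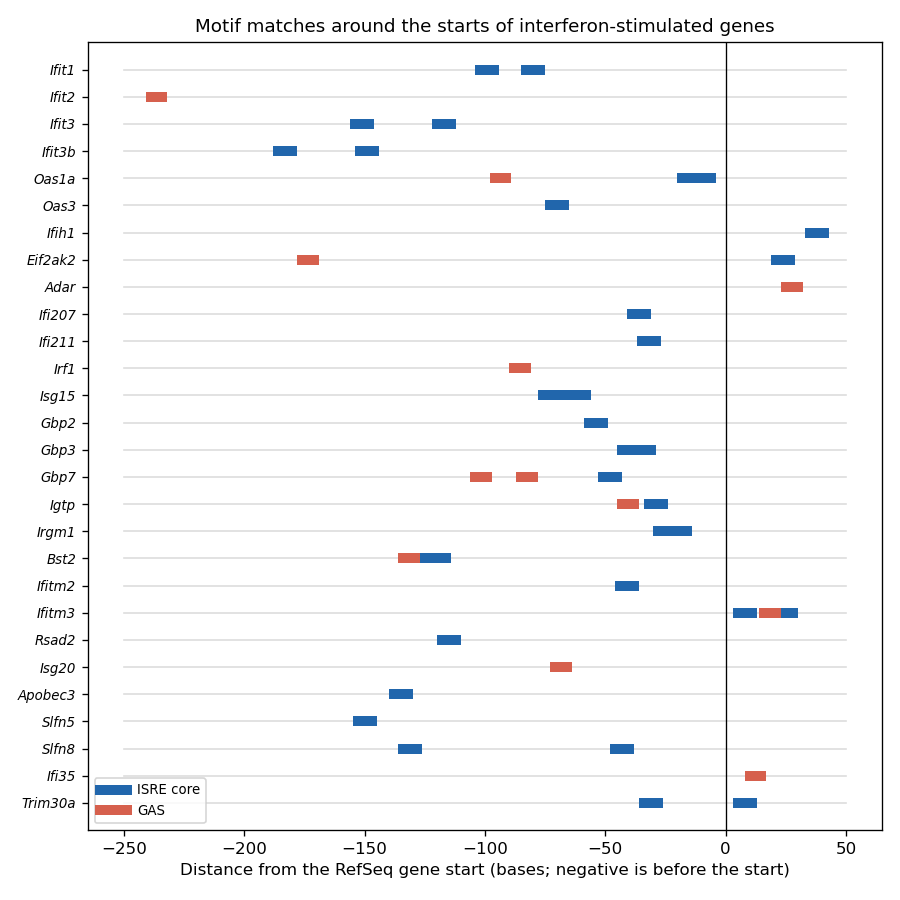
Matches to the ISRE core (blue) and the GAS (red) around the RefSeq starts of the genes that have any, with the distance from the start in bases on the x axis and 1 gene per line. ISRE cores were found in 23 genes and mostly lay before the start (29 of 34), and 11 genes had a GAS; genes with several starts show the matches of all of them on 1 line, so the shared core of Slfn8 appears at both of its distances.

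By family, an ISRE core was present in 5 of 6 GTPase genes with a window, in all 3 membrane restriction factors, in both PYHIN genes, in 3 of 4 IFIT genes and in 2 of 4 OAS genes, but in none of the 4 transcription regulators, of which Irf1 had a GAS. Among the tested genes, the median log2 fold change of PYK2 KO against WT BMDMs was 0.13 for the 22 with an ISRE core, 13 of which were positive and 9 negative. It was 0.11 for the 16 with a window but no core, 12 positive and 4 negative. These values are given side by side and the difference was not tested.

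The list spans a wide range of levels in unstimulated BMDMs. Because 3′ ends were counted, levels were not divided by transcript length. Averaged over the 6 libraries, 7 of the tested genes were at 100 CPM or above, 28 between 10 and 100 CPM, and 14 below 10 CPM. The median of the 49 was 21.9 CPM, against 31.0 CPM for all genes tested. The highest were Ly6e, Ifitm3, Bst2, Ifi27l2a, Ifitm2 and Slfn2, and these 6 held between 71.7% and 75.6% of the summed level of the list in each library. Of the genes that are widely read for an interferon response, Ifit1, Ifit2, Ifit3, Rsad2 and Cmpk2 each averaged under 10 CPM. Isg15 at 44.1 CPM and Irf7 at 37.2 CPM lay above the median of all genes tested. Precision followed the level, and the standard error of the log2 fold change had a median of 0.286 for the genes below 10 CPM, 0.16 for those between 10 and 100 CPM and 0.0995 for those at 100 CPM or above.

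**Figure D2:**
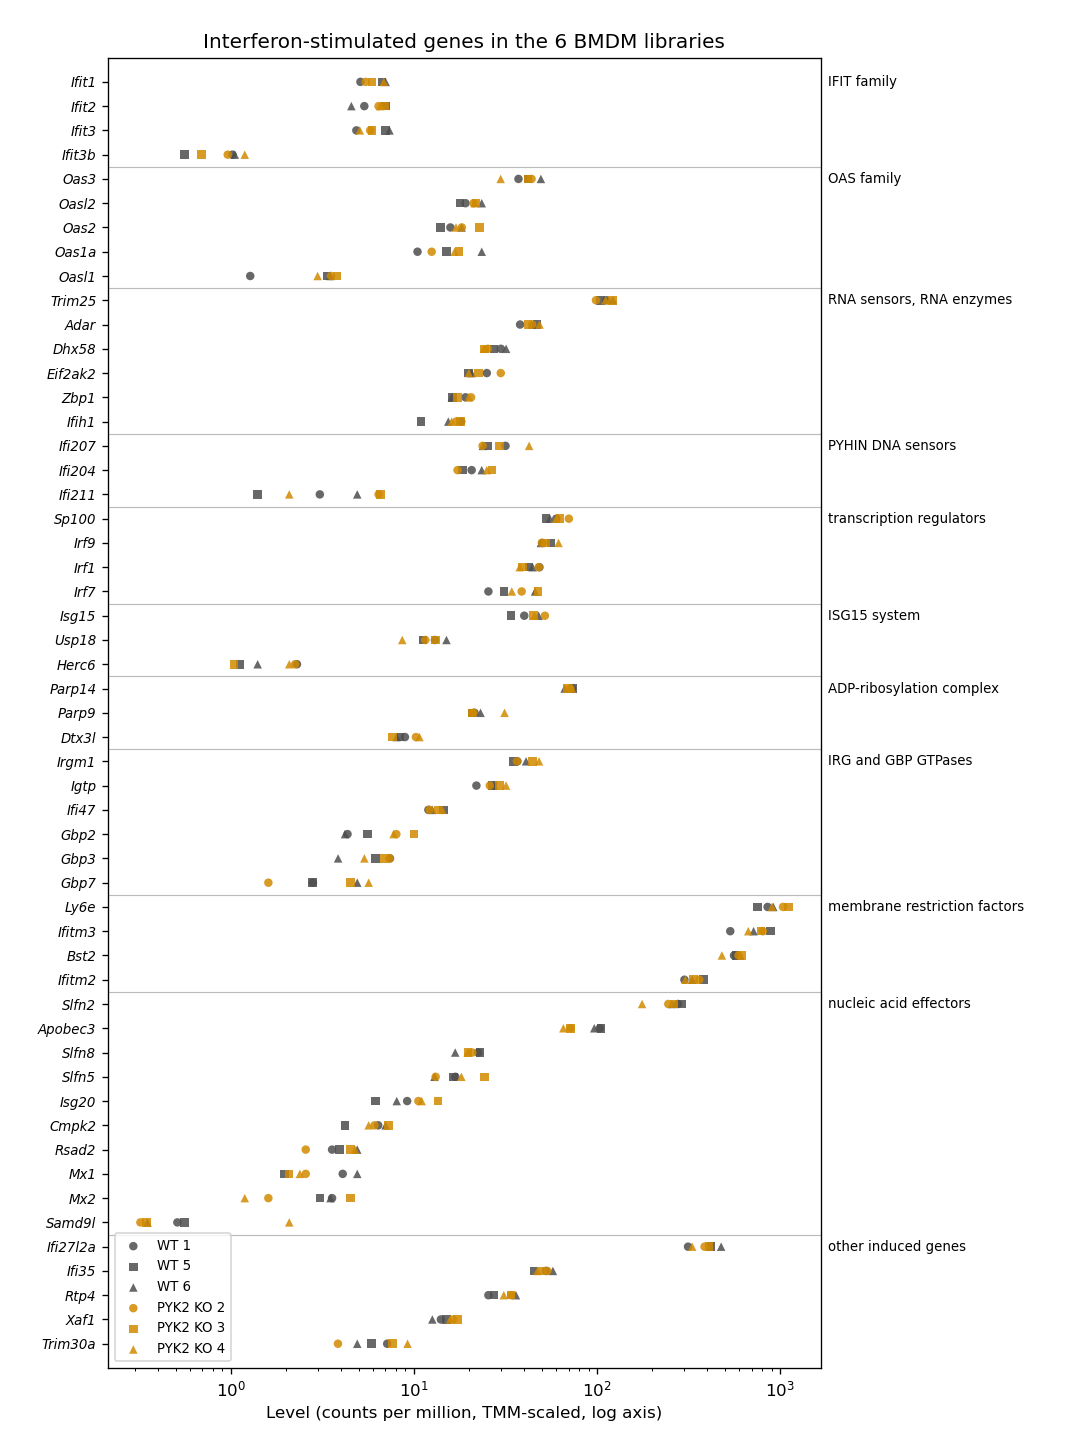
Level in each library (CPM on TMM-scaled totals, log axis) of the 53 genes with a count in every library, grouped by role, with WT libraries in grey and PYK2 KO libraries in orange and a symbol for each mouse. Most grey and orange symbols of a gene mix, the gap of Apobec3 is the exception that passed the test, and levels run from under 1 CPM in Samd9l to over 1000 CPM in Ly6e.

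Of the 6 genes that the filter left out, Iigp1 had no count in any library and Ifi44 had 1 count in WT library 1. A count of 0 allows 3 counts, or between 0.766 and 1.05 CPM depending on the library. Ifit3b had 4, 2 and 3 counts in WT against 3, 2 and 4 in PYK2 KO libraries. Mx1, the founding member of the antiviral dynamin-like GTPases, had 16, 7 and 14 counts in WT against 8, 6 and 8 in PYK2 KO libraries, and Herc6, the mouse ligase for ISG15, had 9, 4 and 4 against 7, 3 and 7. Samd9l had 2, 2 and 1 counts in WT against 1, 1 and 7 in PYK2 KO libraries. These 6 genes were removed by the count filter, and Mx1 was close in total to Mx2 and Oasl1, which were kept. Without the filter 5 of the 6 entered the test and none of them passed.

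Between genotypes, 1 of the 49 tested genes passed an adjusted p-value under 0.05, Apobec3, which was lower in PYK2 KO BMDMs, and none passed as higher. That is 2.04% of the tested genes of the list, where 25 of all 9815 genes passed in either direction (0.255%) and 14 passed as lower (0.143%). At an unadjusted p-value under 0.05 there were 5 genes, 3 higher (Gbp2, Isg20 and Ly6e) and 2 lower (Apobec3 and Slfn2), or 10.2% against 6.03% of all genes. The 3 values of each genotype did not overlap in 5 genes, again 10.2%, which was also the share of all genes (10.2%). Of these, 3 had all PYK2 KO values higher (Gbp2, Isg20 and Xaf1), where 5.17% of all genes did, and 2 had all of them lower (Apobec3 and Dhx58), where 5.07% did. Over the list the log2 fold change was positive for 31 genes and negative for 18, or 63.3% positive against 50.5% of all genes. Its median was 0.13 (quartiles -0.04 and 0.21), beside a median of 0.00 over all genes (quartiles -0.10 and 0.11), and it ran from -0.55 in Apobec3 to 0.85 in Gbp2. For 18 of the 49 genes the 95% interval lay within 0.5 on the log2 scale of no change in either direction, and for 31 it reached past that limit.

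**Figure D3:**
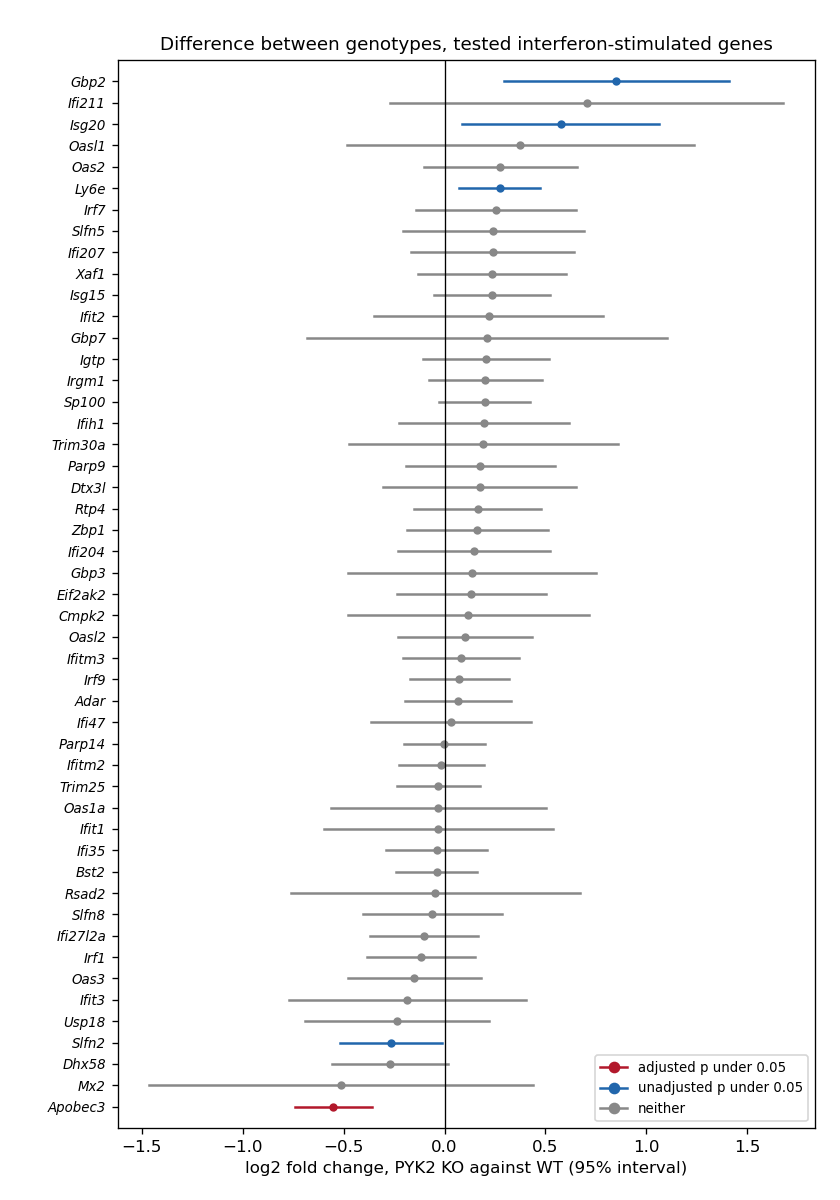
Log2 fold change of PYK2 KO against WT BMDMs for the 49 tested genes, with 95% intervals, ordered by size. Apobec3 (red, adjusted p under 0.05) stands apart at -0.55, the other 4 genes at an unadjusted p under 0.05 are blue, and the remaining intervals (grey) include 0.

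The lean of the median was not carried by all mice of a genotype alike. Each gene was set against its own mean over the 6 libraries on the log2 scale, and the median of these deviations over the tested genes was -0.09, -0.03 and 0.04 in WT libraries 1, 5 and 6 and 0.03, 0.12 and 0.01 in PYK2 KO libraries 2, 3 and 4. WT library 1 was the lowest and PYK2 KO library 3 the highest, and WT library 6 lay above 2 of the 3 PYK2 KO libraries, so the genotypes overlapped. PYK2 KO library 3 had the highest value of the 6 in 13 genes and the lowest in 1, whereas WT library 5 had the highest in 8 and the lowest in 13. The summed level of the list was 3941, 4376 and 4466 CPM in WT against 4540, 4690 and 3999 CPM in PYK2 KO libraries. Without the 6 highest genes the sum was 1066 to 1159 CPM in WT against 1107 to 1160 CPM in PYK2 KO libraries. The median log2 fold change of the list came to 0.07 when WT library 1 was left out and to 0.06 when PYK2 KO library 4 was.

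**Figure D4:**
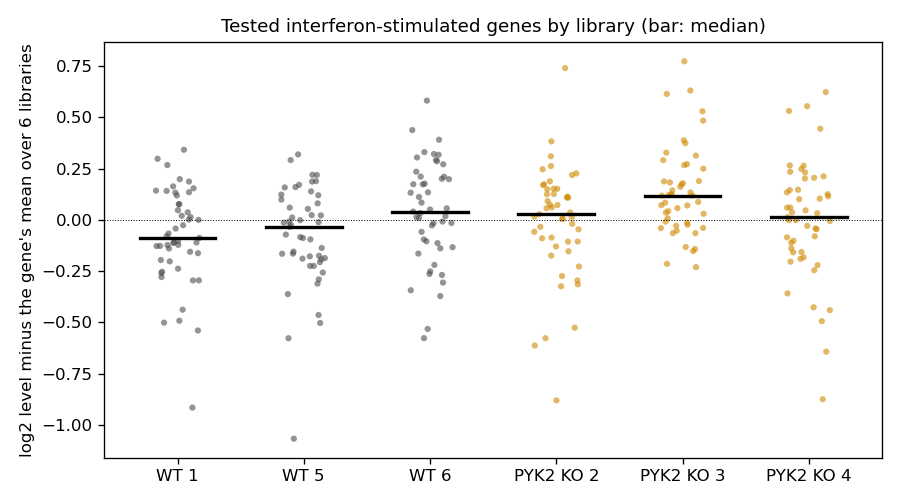
Deviation of each tested gene from its own mean over the 6 libraries (log2 scale, y axis) in each library (x axis), with 1 point per gene and a bar at the median. The medians run from -0.09 in WT library 1 to 0.12 in PYK2 KO library 3 and those of the genotypes overlap.

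An earlier look at these counts noticed genes that did not follow genotype, in which WT library 1 stood with PYK2 KO libraries 3 and 4. Over all genes the distances between libraries were taken as a chi-square on raw counts, which also depends on depth. Among the pairs of WT library 1 the chi-square per degree of freedom was lowest with PYK2 KO library 3 (3.06) and highest with PYK2 KO library 4 (5.01), with 3.77 and 4.79 for WT libraries 5 and 6 and 3.89 for PYK2 KO library 2. Among the WT libraries, PYK2 KO libraries 2, 3 and 4 were all nearest to WT library 6 (2.87, 2.84 and 4.42), which had the fewest counts. WT library 1 was nearer than WT library 5 to PYK2 KO library 3 (3.06 against 3.24) and to PYK2 KO library 4 (5.01 against 5.31). It was farther than WT library 5 from PYK2 KO library 2 (3.89 against 3.14). PYK2 KO library 3 was nearer to PYK2 KO library 2 (2.15) than to PYK2 KO library 4 (2.97). B2m, the light chain of MHC class I and itself induced by interferon, was one such gene, with 971, 263 and 213 CPM in WT libraries 1, 5 and 6 and 523, 1046 and 1521 CPM in PYK2 KO libraries 2, 3 and 4. Among the neutrophil markers S100a9 was at 70.7, 30.0 and 34.0 CPM in WT against 50.7, 93.2 and 103 CPM in PYK2 KO libraries, and it and Mpo were the 2 with an unadjusted p-value under 0.05 among the 6 of 7 that were tested, where 6.03% of all genes had one. Of the 6, 4 had a positive and 2 a negative sign (Camp at -0.26 and Ltf at -0.09), and none passed the adjusted threshold. The part of neutrophil RNA in the median of the list was not tested. With that grouping as a covariate, the median log2 fold change of the list was 0.09 in place of 0.13, and Apobec3 was again the 1 gene that passed.

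Apobec3 encodes a cytidine deaminase that restricts retroviruses, and lies on chromosome 15 from 79891659 to 79915906 on the plus strand (GENCODE M21, GRCm38). It had 406, 376 and 276 counts in WT libraries 1, 5 and 6, against 224, 207 and 220 counts in PYK2 KO libraries 2, 3 and 4. On scaled totals this was 103.7, 105.2 and 96.7 CPM in WT against 71.9, 71.7 and 65.6 CPM in PYK2 KO BMDMs. The libraries of each genotype lay close together and all 3 PYK2 KO values were below all 3 WT values. The level fell in PYK2 KO BMDMs, from a mean of 101.9 ± 4.53 CPM to 69.7 ± 3.59 CPM (SD over 3 mice each), or to 68.3% of the WT level in the fit, a log2 fold change of -0.55 (SE, the standard error, 0.09, 95% interval -0.74 to -0.36, adjusted p = 0.0122 in the quasi-likelihood test of edgeR, adjusted by Benjamini-Hochberg over all 9815 genes). An exact permutation test of the 6 values gave a two-sided p of 0.1, the smallest that 3 against 3 mice allow. Any gene whose genotypes do not overlap, as in 10.2% of all genes, would give this value, so it adds nothing for Apobec3. The size of the difference hardly moved when a library was left out, from -0.58 to -0.51 on the log2 scale, but the adjusted p-value rose to 0.138 without WT library 5, 0.0514 without PYK2 KO library 2, 0.0537 without PYK2 KO library 3 and 0.0836 without PYK2 KO library 4, so that the call was lost in these 4 fits.

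The neighbourhood of Apobec3 was examined in the same fit. Of the 35 other tested genes within 1 Mb of it none passed an adjusted p-value under 0.05, and 3 had an unadjusted p-value under 0.05 (Pdgfb, Rpl3 and Tomm22). Over the whole of chromosome 15, 6 of 397 tested genes passed, or 1.51%, against 25 of the 9712 genes with a position (0.257%). These were Apobec3, Csf2rb2, Letmd1, Lima1, Spats2 and Them6. Ly6e, the only other tested gene of the list on chromosome 15 (74955051 to 74959905, plus strand), lies within 1 Mb of Them6, which rose in PYK2 KO BMDMs, from 8.68 ± 1.83 CPM to 21.5 ± 3.35 CPM (SD over 3 mice each, adjusted p = 0.00855, quasi-likelihood test of edgeR). The part of the chromosome in the difference of Apobec3 was not tested.

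**Figure D5:**
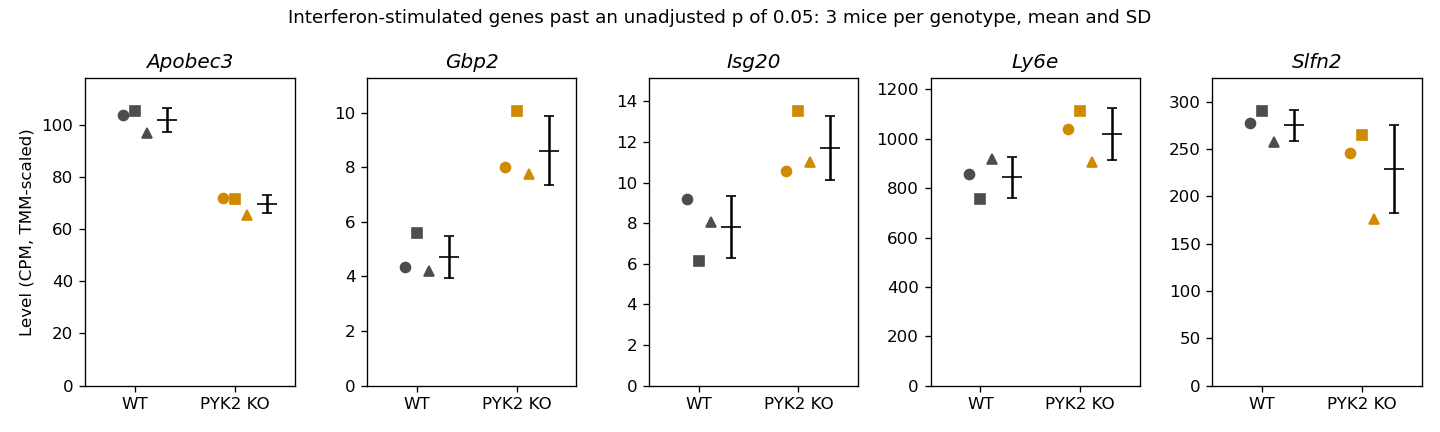
Level (CPM on TMM-scaled totals, axes from 0) of the 5 genes of the list at an unadjusted p under 0.05, with 1 symbol per mouse and the mean and SD of 3 mice beside them. PYK2 KO values lie below WT in Apobec3 and above it in Gbp2 and Isg20, and the genotypes overlap in Ly6e and Slfn2.

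Apobec3 belongs to the enzymes and restriction factors that act on nucleic acids or nucleotides, of which 8 of 10 listed were tested. Of these 1 fell, 3 had a positive and 5 a negative sign, and the median log2 fold change was -0.05. Slfn2, a Schlafen family member that protects tRNA from stress-induced cleavage, was at 276.8, 289.7 and 257.6 CPM in WT against 245.4, 264.3 and 176.4 CPM in PYK2 KO libraries. PYK2 KO library 4 was the lowest and PYK2 KO library 3 lay above WT library 6, so the genotypes overlapped, and the log2 fold change was -0.27 with an SE of 0.12 (adjusted p = 0.787, quasi-likelihood test of edgeR). Without PYK2 KO library 4 it was -0.11. The related Slfn5 and Slfn8 stood at 15.4 and 20.8 CPM in WT against 18.5 and 20.1 CPM in PYK2 KO BMDMs. Isg20, an exonuclease that degrades single-stranded RNA, was at 9.19, 6.16 and 8.06 CPM in WT against 10.6, 13.5 and 11.03 CPM in PYK2 KO libraries. On this scale every PYK2 KO value lay above every WT value, although the raw counts of 22 to 36 in WT against 33 to 39 in PYK2 KO libraries overlapped, and the log2 fold change was 0.57 with an SE of 0.23 (adjusted p = 0.707, quasi-likelihood test of edgeR). Rsad2, which encodes viperin, and Cmpk2, its neighbour on chromosome 12 that encodes a mitochondrial nucleotide kinase, averaged 4.13 and 5.86 CPM in WT against 3.95 and 6.34 CPM in PYK2 KO BMDMs. Mx2, annotated in GENCODE as a polymorphic pseudogene, had 14, 11 and 10 counts in WT against 5, 13 and 4 in PYK2 KO libraries.

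The immunity-related GTPases (Igtp, Irgm1 and Ifi47) and guanylate-binding proteins (Gbp2, Gbp3 and Gbp7) attack the vacuoles of intracellular pathogens and are classical targets of interferon-γ. All 6 that were tested had a positive sign, the median log2 fold change was 0.20, and none passed an adjusted p-value under 0.05. Gbp2 was at 4.34, 5.60 and 4.21 CPM in WT against 8.02, 10.0 and 7.75 CPM in PYK2 KO libraries, on 12 to 20 and 25 to 29 counts. All 3 PYK2 KO values lay above all 3 WT values, with means of 4.72 ± 0.768 and 8.60 ± 1.25 CPM (SD over 3 mice each). This was the highest fold change of the list, 0.85 on the log2 scale (SE 0.26, 95% interval 0.29 to 1.41, adjusted p = 0.509, quasi-likelihood test of edgeR), and it did not pass. Its neighbours on chromosome 3 had smaller differences, Gbp3 with 7.41, 6.16 and 3.86 CPM in WT against 7.38, 6.93 and 5.36 CPM in PYK2 KO libraries and Gbp7 with 11, 10 and 14 counts in WT against 5, 13 and 19 in PYK2 KO libraries. Irgm1, a regulator of the other immunity-related GTPases, was the most abundant of the group at 36.8, 35.0 and 41.0 CPM in WT against 36.6, 44.3 and 48.3 CPM in PYK2 KO libraries. The genotypes overlapped and its log2 fold change was 0.20 with an SE of 0.13 (adjusted p = 0.912, quasi-likelihood test of edgeR). Leaving out PYK2 KO library 2 gave 0.31 and leaving out PYK2 KO library 4 gave 0.11. Igtp stood at 25.4 and 29.1 CPM and Ifi47 at 13.1 and 13.3 CPM in WT and PYK2 KO BMDMs.

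Of the membrane restriction factors, Ly6e, Ifitm3 and Bst2 had the 3 highest levels of the list. Ly6e, a GPI-anchored protein that limits the entry of coronaviruses, was at 856, 755 and 919 CPM in WT against 1039, 1112 and 905 CPM in PYK2 KO libraries. Of the PYK2 KO libraries only number 4 lay within the WT range, and the log2 fold change of 0.27 with an SE of 0.09 (adjusted p = 0.596, quasi-likelihood test of edgeR) did not pass. Ifitm3, which blocks viral fusion in endosomes, was at 535, 887 and 717 CPM in WT against 806, 788 and 671 CPM in PYK2 KO libraries, so the WT libraries were spread over the whole range of the PYK2 KO libraries. Its relative Ifitm2 averaged 338 CPM in WT against 334 CPM in PYK2 KO BMDMs. Bst2, or tetherin, which holds budding virions at the cell surface, was at 561, 576 and 605 CPM in WT against 594, 620 and 482 CPM in PYK2 KO libraries. Among these 4 genes 2 had a positive and 2 a negative sign, with a median log2 fold change of 0.03.

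Of the IFIT proteins, IFIT1 binds viral RNA that lacks the cap methylation of the host. In the IFIT genes the genotypes were mixed throughout. Ifit1 was at 5.11, 6.72 and 7.01 CPM in WT against 5.45, 5.89 and 6.86 CPM in PYK2 KO libraries, and the log2 fold change was -0.03 with an SE of 0.27 (adjusted p = 0.997, quasi-likelihood test of edgeR). Its sign turned on leaving out the WT libraries 5 (0.03) or 6 (0.05) and on leaving out PYK2 KO library 2 (0.04). The value was -0.17 in the absence of WT library 1, -0.01 in that of PYK2 KO library 3 and -0.13 in that of PYK2 KO library 4. Ifit2 averaged 5.64 and 6.63 CPM and Ifit3 6.40 and 5.58 CPM in WT and PYK2 KO BMDMs. At 13 to 25 counts per library the 95% intervals of these 3 genes reached from -0.77 to 0.79 at the widest.

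The OAS enzymes make the 2′-5′ oligoadenylates that switch on RNase L. Oas3, the highest of the 5, was at 37.3, 42.0 and 49.4 CPM in WT against 44.0, 41.9 and 29.8 CPM in PYK2 KO libraries. The genotypes overlapped, and its log2 fold change was -0.15 with an SE of 0.15 (adjusted p = 0.95, quasi-likelihood test of edgeR). Its sign turned without PYK2 KO library 4, to 0.01, and leaving out WT library 6 gave -0.04, WT library 1 -0.25 and PYK2 KO library 2 -0.26. With the library grouping as a covariate the value for Oas3 was -0.06. Oas1a was spread most in WT, from 10.5 CPM in library 1 to 23.5 CPM in library 6, around the 12.5 to 17.7 CPM of the PYK2 KO libraries. Oas2 averaged 16.0 and 19.4 CPM, Oasl2 20.2 and 21.5 CPM and Oasl1, an inhibitor of Irf7 translation, 2.71 and 3.44 CPM in WT and PYK2 KO BMDMs. The median log2 fold change of the family was 0.10, with 3 positive and 2 negative signs.

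Among the sensors of RNA and the enzymes that respond to it, Trim25, a ubiquitin ligase of the RIG-I pathway, was the highest at 113 ± 8.97 CPM in WT against 111 ± 11.4 CPM in PYK2 KO BMDMs (SD over 3 mice each). Its log2 fold change was -0.03 with an SE of 0.10 (adjusted p = 0.993, quasi-likelihood test of edgeR), with a 95% interval of -0.24 to 0.18. Its sign turned when WT library 6 (0.03) or PYK2 KO library 2 (0.04) was left out, and the value was -0.09 in the absence of WT library 5 and -0.10 in that of PYK2 KO library 3. Dhx58, or LGP2, a helicase that regulates the sensor MDA5, was at 29.9, 27.4 and 31.9 CPM in WT against 25.3, 24.2 and 24.1 CPM in PYK2 KO libraries. Its PYK2 KO values all lay below the WT values without an unadjusted p-value under 0.05, and it is singled out here after its values were seen. Ifih1, which encodes MDA5, averaged 14.8 and 17.0 CPM, Eif2ak2 (the kinase PKR) 21.9 and 24.1 CPM, Zbp1 (a sensor of Z-form nucleic acid) 17.2 and 19.3 CPM and Adar (an RNA-editing enzyme) 43.1 and 44.9 CPM in WT and PYK2 KO BMDMs. Of the 6 genes 4 had a positive and 2 a negative sign.

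The PYHIN genes Ifi204, Ifi207 and Ifi211 encode DNA-binding proteins of the interferon-inducible p200 family and lie together on chromosome 1. All 3 had a positive sign. Ifi207 was at 31.7, 25.5 and 23.8 CPM in WT against 23.7, 29.4 and 42.6 CPM in PYK2 KO libraries, and the log2 fold change was 0.24 with an SE of 0.19 (adjusted p = 0.935, quasi-likelihood test of edgeR). This sign rested on PYK2 KO library 4, and without it the log2 fold change was -0.04. It was 0.38 and 0.41 when WT library 1 or PYK2 KO library 2 was left out, and 0.09 with the library grouping as a covariate. Ifi204 averaged 20.9 and 23.0 CPM in WT and PYK2 KO BMDMs. Ifi211 had 12, 5 and 14 counts in WT against 20, 19 and 7 in PYK2 KO libraries.

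Of the transcription regulators, Irf9 is the DNA-binding subunit of ISGF3, Irf7 amplifies type I interferon production, Irf1 acts on many of the other genes, and Sp100 is a component of nuclear PML bodies. Sp100 was at 60.0, 52.6 and 55.4 CPM in WT against 70.3, 63.0 and 59.9 CPM in PYK2 KO libraries. The lowest PYK2 KO value lay just under the highest WT value, and the log2 fold change was 0.20 with an SE of 0.11 (adjusted p = 0.883, quasi-likelihood test of edgeR), or 0.13 without PYK2 KO library 2. Irf7 was at 25.5, 31.1 and 45.9 CPM in WT against 38.8, 47.8 and 34.3 CPM in PYK2 KO libraries, a spread that covered both genotypes. Irf9 averaged 52.0 and 54.7 CPM and Irf1 45.2 and 41.7 CPM in WT and PYK2 KO BMDMs.

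Isg15 is a ubiquitin-like protein that is joined to other proteins and is cut off them by Usp18, which also dampens signalling at IFNAR2. Isg15 was at 40.1, 33.9 and 48.0 CPM in WT against 52.0, 45.0 and 45.6 CPM in PYK2 KO libraries. WT library 6 lay above 2 of the PYK2 KO libraries, and the log2 fold change was 0.24 with an SE of 0.14 (adjusted p = 0.896, quasi-likelihood test of edgeR). It was 0.12 without WT library 5 and 0.36 without WT library 6. Usp18 was at 13.0, 11.2 and 15.1 CPM in WT against 11.5, 13.2 and 8.64 CPM in PYK2 KO libraries. Parp14, Parp9 and Dtx3l, neighbours on chromosome 16, take part in ADP-ribosylation and ubiquitin transfer, Parp9 and Dtx3l as a complex. Parp14 was the steadiest of the tested genes (SD 3.92% of its mean over the 6 libraries), at 73.0, 73.9 and 66.6 CPM in WT against 71.5, 69.3 and 73.0 CPM in PYK2 KO libraries, with a log2 fold change of -0.0004 (SE 0.09, 95% interval -0.20 to 0.20, adjusted p = 0.999, quasi-likelihood test of edgeR) that ran from -0.04 to 0.03 as each library was left out. Parp9 averaged 21.8 and 24.4 CPM and Dtx3l 8.47 and 9.54 CPM in WT and PYK2 KO BMDMs.

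The other induced genes were led by Ifi27l2a, a small membrane protein, at 315, 421 and 477 CPM in WT against 387, 409 and 331 CPM in PYK2 KO libraries. WT library 1 was the lowest and WT library 6 the highest of all, and the log2 fold change was -0.10 with an SE of 0.13 (adjusted p = 0.964, quasi-likelihood test of edgeR). Its sign turned without WT library 6, to 0.03, and leaving out WT library 1 gave -0.26, PYK2 KO library 3 -0.17 and PYK2 KO library 4 -0.02. Xaf1, a pro-apoptotic antagonist of XIAP, was at 14.05, 15.1 and 12.6 CPM in WT against 16.4, 17.3 and 15.8 CPM in PYK2 KO libraries. Its genotypes did not overlap although it had no unadjusted p-value under 0.05, and like Dhx58 it is singled out after its values were seen. Ifi35 averaged 51.8 and 50.3 CPM, Rtp4 29.7 and 33.0 CPM and Trim30a 5.98 and 6.90 CPM in WT and PYK2 KO BMDMs.

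Some of these genes share sequence with a close copy near their 3′ ends, where the reads lie, so that counts may be split between the copies. The longest identical stretch in the last 1000 bases of the GENCODE transcripts was 526 bases between Oas1a and Oas1g, 181 between Ifit3 and Ifit3b, 139 between Slfn8 and Slfn9, 69 between Ifitm2 and Ifitm3, 67 between Ifi204 and Ifi207 and 32 between Trim30a and Trim30d. Values of these genes are uncertain to that extent. Gbp2, Gbp3 and Gbp7 shared at most 16 bases with each other.

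The genes that signal to this list were examined in the same fit, with lists of ligands, receptor chains, kinases and STATs, negative regulators and upstream sensors. None of these genes passed an adjusted p-value under 0.05 in the quasi-likelihood test of edgeR, and of the 29 that were tested 1 (3.45%), Stat2, had an unadjusted p-value under 0.05, where 6.03% of all genes did. The genotypes did not overlap in 5 of the 29 (Ifngr1, Jak2, Stat2, Stat3 and Tbk1), or 17.2% against 10.2% of all genes. All 20 interferon genes listed, among them Ifnb1, Ifng and 13 genes named Ifna, were at 0 counts in all 6 libraries, which allows each of them up to 0.766 to 1.05 CPM depending on the library. Of the receptor chains, 5 of 6 were tested and all 5 had a negative sign. Ifnar1 stood at 60.5 ± 5.46 and 59.9 ± 3.27 CPM and Ifnar2 at 114 ± 15.3 and 109 ± 8.26 CPM in WT and PYK2 KO BMDMs (SD over 3 mice each), with log2 fold changes of -0.02 and -0.06. Ifngr1 was at 209.9, 211.6 and 209.6 CPM in WT against 194.4, 194.3 and 195.5 CPM in PYK2 KO libraries, so that its genotypes did not overlap, with a log2 fold change of -0.11 (SE 0.08). Ifngr2 was low, with 36, 16 and 23 counts in WT against 23, 17 and 14 in PYK2 KO libraries. Il10rb, shared by the receptors of interferon-λ and interleukin 10, averaged 444 and 425 CPM in WT and PYK2 KO BMDMs, and Ifnlr1 had 1 count in WT and 2 in PYK2 KO libraries.

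Of the kinases and STATs, all PYK2 KO values lay above the WT values in Stat2 and Jak2 and below them in Stat3. Stat2 was at 52.9, 62.4 and 63.1 CPM in WT against 71.5, 73.8 and 63.5 CPM in PYK2 KO libraries. The closest PYK2 KO and WT values were less than 1 CPM apart, and the log2 fold change was 0.23 with an SE of 0.11 (adjusted p = 0.827, quasi-likelihood test of edgeR). Of the negative regulators, such as Socs3 and Ptpn6, 6 of 7 were tested and all 6 had a negative sign, their log2 fold changes having a median of -0.12 and a range from -0.20 to -0.06. Of the upstream sensors and adaptors, such as Ddx58 and Mavs, 14 of 16 were found under their listed symbols and 12 were tested, 4 with a positive and 8 with a negative sign and a median of -0.07. The symbols not found, Mb21d1 and Tmem173, are listed in the count table as Cgas, the sensor of cytosolic DNA, and Sting1, its adaptor, and were looked up after the list was made. Cgas was at 9.70, 12.6 and 15.8 CPM in WT against 16.4, 14.9 and 16.7 CPM in PYK2 KO libraries and Sting1 at 34.2, 38.3 and 31.2 against 34.3, 30.1 and 31.0 CPM. The genotypes overlapped in both, and neither had an unadjusted p-value under 0.05.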

How the data were processed

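RNA-seq was performed on BMDMs of 3 WT and 3 PYK2 KO mice. The values deposited by the authors are raw counts, whole numbers for each gene that came from mapping and counting in the UTAP pipeline, with no normalization. Their processing notes list cutadapt, STAR and mm10 (versions not given in the sources used here), and whether molecular identifiers were collapsed is not stated, so limits cover counting error only. Columns were matched to libraries by name and 0 columns belonged to other samples. The totals were 2857097 to 3917207 counts per library.

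Genotypes were compared with edgeR 4.0.16 under R 4.3.3, using filterByExpr for low counts, TMM for scaling, its quasi-likelihood test, and a Benjamini-Hochberg adjusted p-value under 0.05 for a call. The fit was also run on counts simulated from its own dispersions, with no grouping of libraries, and the outcome is not reported here. A standard error is the log2 fold change divided by the root of its F statistic. Levels are CPM on TMM-scaled totals, and deviations between libraries are log2 CPM with a prior count of 2. Alternatives were DESeq2 1.42.0, limma 3.58.1 (voom), a likelihood ratio test, other scalings and filters, a covariate for a grouping of libraries seen in the data, and leaving out each library. The labels name separate mice, and p-values measure the spread between them.

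Fold changes with errors and adjusted p-values are printed for listed genes with an unadjusted p-value under 0.05 and for the tested gene with the highest level in each of 11 role groups. The genes, lists and tests were chosen with earlier results of these data known. Gene positions are those of GENCODE M21 and promoters those of RefSeq (GRCm38.p6, the assembly of mm10), matched by symbol. Some genes of these lists are not reported here. The authors' own table of fold changes and p-values was not used.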

Additional observations from a re-analysis of the deposited data

How the results depend on the processing

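Apobec3 was the 1 gene of the list past the threshold under every alternative with all 6 libraries, with a log2 fold change from -0.56 to -0.54 and an adjusted p-value from 3.09e-05 to 0.0182 (edgeR, DESeq2 or limma). With 1 library left out, 0 to 1 genes of the list passed, and over all genes 14 (without PYK2 KO library 4) to 34 (without WT library 1) passed instead of 25. Over all genes 159 passed without a filter, where 18659 genes were tested, and 45 in the likelihood ratio test. At an unadjusted p-value under 0.05 there were 5 genes of the list in the main fit and 4 in DESeq2. With the library grouping as a covariate there were 3, and with 1 library left out 4 to 8. The median log2 fold change of the list was 0.09 to 0.14 under the alternatives with all libraries and 0.0562 to 0.119 with 1 left out, always above 0. Signs near 0 reversed: Parp14 was at 0.0093 with upper-quartile scaling, 0.0078 without scaling, 0.00025 with at least 10 counts in every library and 4.04e-05 in limma, and Ifit1 and Ifi27l2a were at 0.0064 and 0.0105 with the library grouping as a covariate. With 1 library left out, the log2 fold change ranged from -0.0420 to 0.0263 for Parp14, -0.171 to 0.0474 for Ifit1, -0.256 to 0.0325 for Ifi27l2a, -0.102 to 0.0433 for Trim25, -0.259 to 0.0125 for Oas3 and -0.0359 to 0.414 for Ifi207. The cause of these changes was not tested. Of 210 values of single genes, 189 kept direction and side of the threshold, 17 reversed in sign and 4 lost the call. The 4 lost calls were all of Apobec3. The other named genes had adjusted p-values from 0.509 (Gbp2) upwards in the quasi-likelihood test of edgeR, so keeping their side says little. No paired analysis was possible because no library number occurs in both genotypes. Depth limits the genes under 10 CPM most, and a difference of 0.5 on the log2 scale lay within the 95% interval of 31 of the 49 tested genes on at least one side.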

Other observations

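A second list of interferon-induced genes, with none of the 55 in it, was examined in the same fit. It held 77 symbols, of which 76 were in the count table and 56 were tested. None passed an adjusted p-value under 0.05 in edgeR's quasi-likelihood test, 36 had a positive and 20 a negative sign, and the median log2 fold change was 0.03 (quartiles -0.06 and 0.12), beside 0.00 over all genes (quartiles -0.10 and 0.11) and 0.13 for the 55. The lists were not tested against each other. At an unadjusted p-value under 0.05 there were 5 genes, 4 higher and 1 lower, or 8.93% against 6.03% of all genes. Mndal, a PYHIN gene of the same cluster on chromosome 1 as Ifi204, was at 11.7, 6.72 and 7.36 CPM in WT and 14.1, 13.5 and 23.2 CPM in PYK2 KO libraries, so that all PYK2 KO values lay above all WT values, with a log2 fold change of 0.96, an SE of 0.26 and an adjusted p of 0.362. Ms4a6d was at 85.6, 58.5 and 55.4 CPM in WT and 70.9, 101 and 115 CPM in PYK2 KO libraries, with WT library 1 above PYK2 KO library 2. Phf11b stood at 10.6 ± 1.66 and 14.8 ± 3.41 CPM and B2m at 482 ± 424 and 1030 ± 499 CPM in WT and PYK2 KO BMDMs (SD, n = 3 mice each). Cd274, which encodes the checkpoint ligand PD-L1, was at 33.7, 22.7 and 27.7 CPM in WT and 18.9, 23.6 and 23.2 CPM in PYK2 KO libraries, so that its genotypes overlapped.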
